A study of Mus musculus with 9 samples.

Results

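Integrins are paired adhesion receptors, each made of an alpha and a beta chain, that hold leukocytes to vessel walls, matrix and opsonised targets. Neutrophils rely above all on the β2 integrins, in which the shared chain CD18 (Itgb2) pairs with CD11b (Itgam), CD11a (Itgal) or CD11c (Itgax), and they also carry α4 and α5 chains that pair with β1 or β7. The described set is 9 genes, chosen by symbol: Itgb2, Itgam, Itgal, Itgax, Itgb2l, Itga4, Itgb7, Itgb1 and Itga5. They are 9 of 24532 genes in the deposited series table, and all 9 were among the 13510 genes expressed enough to test.

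Neutrophils were sorted from the lung, the peripheral blood and the bone marrow of wild type C57BL/6 mice, with 3 biological replicates for each tissue, and polyadenylated RNA was sequenced. The design text states no question beyond profiling neutrophils of the 3 tissues. The labels used here give neither the sort markers, nor the ages, nor whether 1 replicate is 1 mouse, so p-values measure the spread between these samples. Library totals were 42045548 to 56796219 reads, at which a floor of 3 reads is 0.0528 to 0.0714 CPM (counts scaled to a common library size), for counting error only. Every member lay far above that floor, the lowest value being 9.15 CPM.

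The 18 neutrophil markers summed to 36012 to 65564 CPM in lung, 32541 to 46503 CPM in blood and 116801 to 165880 CPM in bone marrow, more in every library than any other marker list. No neutrophil marker was at 0 in all libraries. Single neutrophil markers differed with tissue in both directions. Ly6g stood at 15.4 to 27 CPM in lung, 21.2 to 24.8 CPM in blood and 417 to 677 CPM in bone marrow. Csf3r stood at 5207 to 10836, 11321 to 15897 and 4392 to 5385 CPM. The sums therefore do not compare neutrophil numbers between tissues. Lung replicates 1 and 2 stood apart from lung replicate 3: the 10 fibroblast markers summed to 1934, 1544 and 115 CPM in lung replicates 1, 2 and 3, and the 12 dendritic cell and MHC class II markers to 2736, 2071 and 685 CPM. Blood replicate 3 was likewise lower than blood replicates 1 and 2 in B cell markers, with 73.8 CPM against 457 and 445 CPM. The 9 erythroid markers present summed to 429, 342 and 32.9 CPM in lung replicates 1, 2 and 3. Their sums were 8807, 6113 and 822 CPM in blood and 8551, 9367 and 1718 CPM in bone marrow, again lowest in replicate 3. In bulk RNA, fewer cells of a type and less RNA per cell cannot be told apart.

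Levels below are CPM with TMM scaling (trimmed mean of M-values), log2 fold changes are edgeR quasi-likelihood estimates ± SE with the first-named tissue on top, and a gene passed at a Benjamini-Hochberg adjusted p under 0.05. Levels of different genes are compared in FPKM, a count scaled by transcript length and library size, as the authors deposited them.

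Between blood and bone marrow, 6 of the 9 genes passed, 5 higher and 1 lower in blood, where 21.4% of all tested genes passed, 8.35% higher and 13.1% lower. The members' median log2 fold change was 0.89, beside -0.05 over all tested genes. Between lung and bone marrow 7 passed, 4 higher and 3 lower in lung, beside a background of 38.2% (15.6% higher and 22.6% lower), with medians of 0.44 and 0.06. Between lung and blood 3 passed, 1 higher and 2 lower in lung, beside a background of 28.9% (13.2% higher and 15.7% lower). A share of 3 in 9 is near that background. The libraries did not overlap in 9 members for blood against bone marrow, in 7 for lung against bone marrow and in 4 for lung against blood, where this held for 45.4%, 49% and 41.6% of all tested genes.

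**Figure D1:**
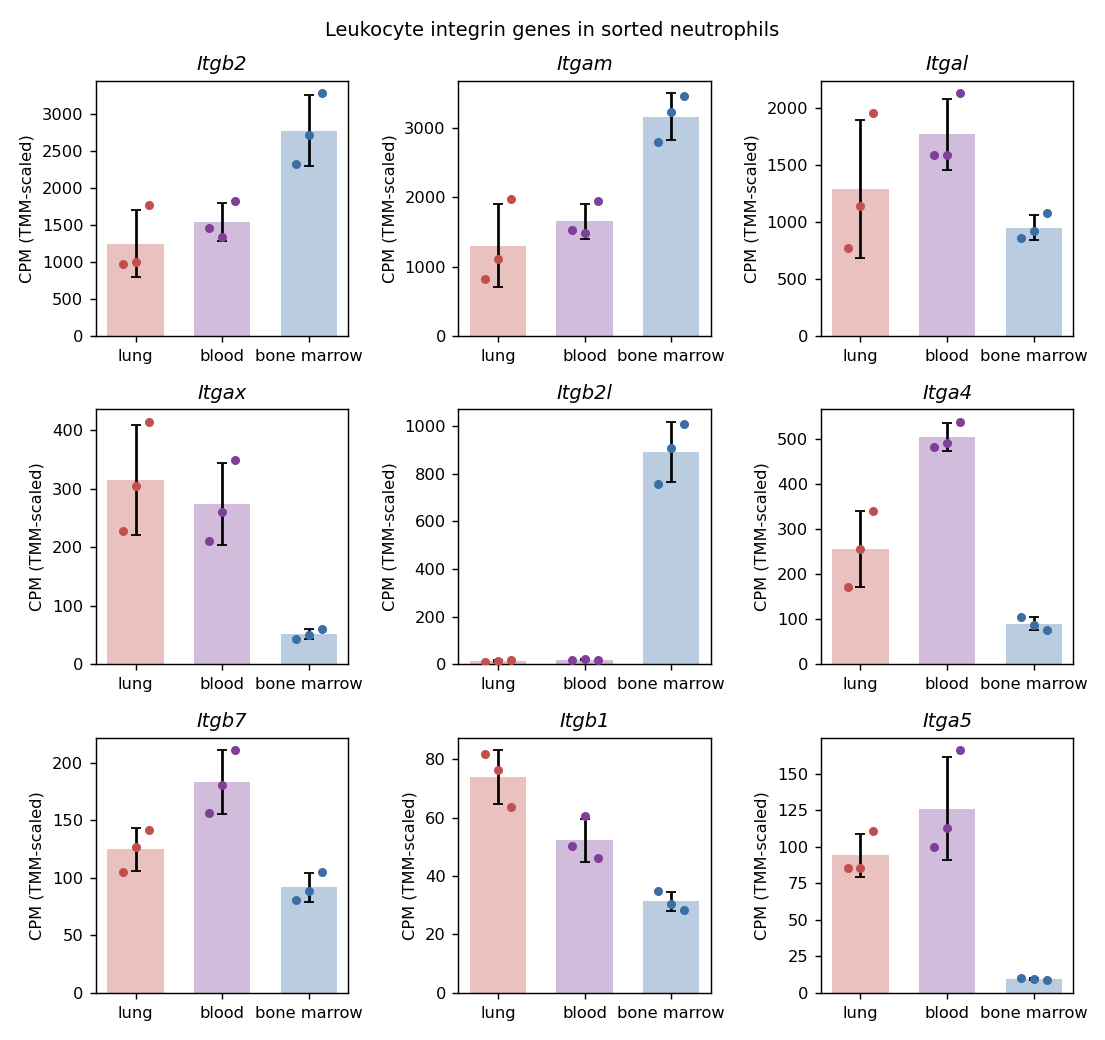
TMM-scaled CPM of each member in lung, blood and bone marrow neutrophils; points are the 3 libraries, bars the mean and whiskers the SD. Itgb2l stands at 758 to 1009 CPM in bone marrow and under 22 CPM elsewhere, while Itgax, Itga4 and Itga5 are lowest in bone marrow.

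**Figure D2:**
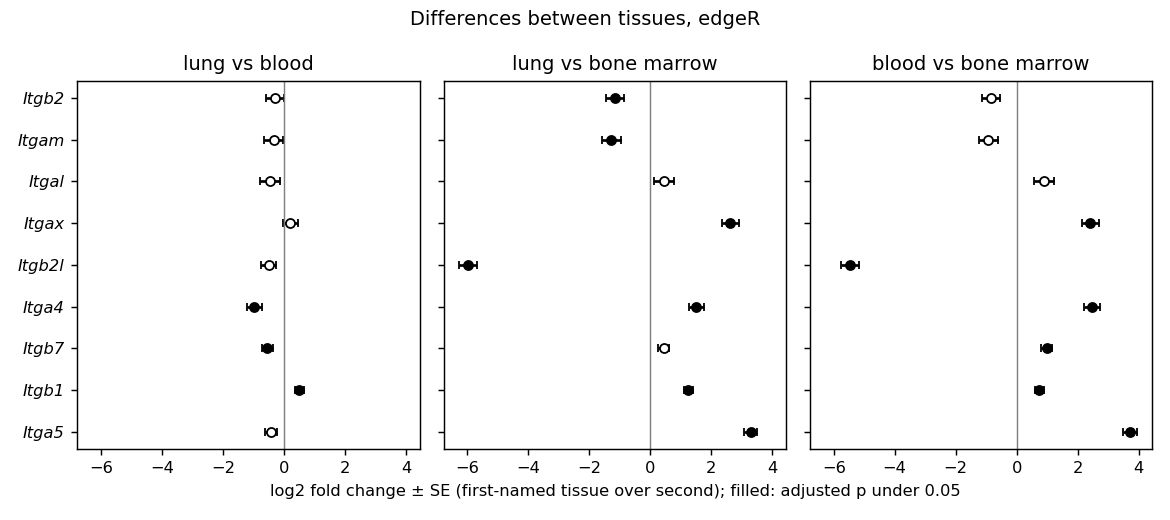
Log2 fold change ± SE of each member in the 3 comparisons (x axis), from the edgeR fit of all 9 libraries; filled points have an adjusted p under 0.05. Itgb2l lies furthest to the left (-5.98 and -5.46) and Itga5 furthest to the right (3.29 and 3.71) in the comparisons with bone marrow.

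Itgb2l showed the greatest difference of the set. It encodes pactolus, a β2-like surface protein of mouse neutrophils that is not known to pair with an alpha chain (Entrez gene 16415, chromosome 16, 96422298 to 96443614, mm10). It stood at 9.35, 15.3 and 17.9 CPM in lung libraries, at 20.4, 21.2 and 19.1 CPM in blood libraries and at 758, 909 and 1009 CPM in bone marrow libraries. Both peripheral groups lay wholly below the marrow. Blood was 44.1-fold lower than bone marrow (log2 fold change -5.46 ± 0.29, adjusted p = 2e-05), and lung 63-fold lower (-5.98 ± 0.29, adjusted p = 9.13e-06). Lung and blood libraries did not overlap, yet their difference of -0.51 ± 0.24 did not pass (adjusted p = 0.144). It did pass without lung replicate 3 (adjusted p = 0.036), and on FPKM with a pseudocount of 1 or 0.1.

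Itgb2, the shared β2 chain (Entrez gene 16414, chromosome 10, 77530348 to 77565674), moved far less. Its level was 977, 1002 and 1765 CPM in lung libraries, 1459, 1330 and 1820 CPM in blood libraries and 2324, 2707 and 3277 CPM in bone marrow libraries. The marrow libraries lay above all others, and with TMM scaling lung replicate 3 lay within the blood range. Lung was 2.22-fold lower than bone marrow (log2 fold change -1.15 ± 0.29, adjusted p = 0.0135). Blood against bone marrow, at -0.85 ± 0.29, did not pass (adjusted p = 0.0658). Among the library omissions it passed only without lung replicate 3 (adjusted p = 0.0154). It also passed with the replicate number as a block and with only 2 tissues in the fit. The lung call was lost without lung replicate 2, any 1 of the blood libraries or bone marrow replicate 3 (adjusted p = 0.0541 to 0.0719). It was also lost with DESeq2 size factors, with no filter and with only 2 tissues in the fit. Lung against blood, at -0.30 ± 0.29, passed only without lung replicate 3 among the library omissions (adjusted p = 0.0467). In FPKM, lung stood at 392, 387 and 471, wholly below the 533 to 643 of blood. Both lung against blood and blood against bone marrow passed on FPKM, with a pseudocount of 1 or 0.1.

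Counted per length, Itgb2l made up 1.03%, 1.64% and 1.1% of the summed Itgb2 and Itgb2l FPKM in lung libraries, 1.5%, 1.71% and 1.14% in blood libraries and 26.3%, 26.9% and 25.2% in bone marrow libraries. A share within a library does not depend on how libraries are scaled. In marrow, Itgb2 was 2.83 ± 0.127 times Itgb2l in FPKM, against 82 ± 19.2 times in lung and 70 ± 15.3 times in blood (SD, n = 3 each). With 3 libraries against 3, an exact two-sided permutation test cannot go below p = 0.1, which is the value for each share that did not overlap among the 24 comparisons of shares made. None of them can pass after adjustment.

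Among the alpha partners of Itgb2, Itgam and Itgax are neighbours on chromosome 7, and in lung against bone marrow they differed in opposite directions. Itgam, the CD11b chain of the complement receptor Mac-1 (Entrez gene 16409, 128062640 to 128118491), ends 11.1 kb before Itgax, the CD11c chain (Entrez gene 16411, 128129568 to 128150657). Itgal, the CD11a chain of LFA-1 (Entrez gene 16408, 127296260 to 127335137), lies 727.5 kb away on the same chromosome.

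Itgam stood at 819, 1115 and 1974 CPM in lung libraries, at 1529, 1488 and 1945 CPM in blood libraries and at 2790, 3235 and 3458 CPM in bone marrow libraries. Marrow was highest in every library, and lung spanned the widest range. Lung was 2.43-fold lower than bone marrow (log2 fold change -1.28 ± 0.32, adjusted p = 0.014). That call was lost without lung replicate 2, any 1 of the blood libraries or bone marrow replicate 2 (adjusted p = 0.05 to 0.0687). It was also lost with DESeq2 size factors, with no filter and with only 2 tissues in the fit. Blood against bone marrow stood at -0.93 ± 0.32 (adjusted p = 0.0696) and passed without lung replicate 1 or lung replicate 3 (adjusted p = 0.039 and 0.011). It also passed with the replicate number as a block and with only 2 tissues in the fit. Lung against blood, at -0.34 ± 0.32, passed without lung replicate 3 (adjusted p = 0.0254) and not with all libraries (adjusted p = 0.471). In FPKM, lung (201 to 322) lay wholly below blood (342 to 420). Both lung against blood and blood against bone marrow passed on FPKM, with a pseudocount of 1 or 0.1.

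Itgax stood at 228, 305 and 415 CPM in lung libraries, at 211, 260 and 349 CPM in blood libraries and at 44.2, 49.7 and 60.6 CPM in bone marrow libraries. Lung and blood overlapped, and both lay above every marrow library. Itgax was 6.14-fold higher in lung than in bone marrow (2.62 ± 0.28, adjusted p = 0.000167) and 5.31-fold higher in blood than in bone marrow (2.41 ± 0.28, adjusted p = 0.000504). Lung against blood, at 0.21 ± 0.26, did not pass (adjusted p = 0.605), and its sign turned without lung replicate 3 (-0.07).

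CD11c is also a common dendritic cell marker, so the summed dendritic cell and MHC class II markers were set beside it. They were 2736, 2071 and 685 CPM in lung replicates 1, 2 and 3, 1179, 1263 and 192 CPM in blood replicates 1, 2 and 3, and 103 to 194 CPM in bone marrow. With TMM scaling, replicate 3 of lung and of blood had the lowest sum and the highest Itgax level of its tissue. In FPKM this held in blood (54.9, 78.1 and 87.7) and not in lung, where Itgax stood at 65.1, 83.8 and 78.7 in replicates 1, 2 and 3. Blood replicate 3 and the first bone marrow replicate had nearly the same sum (192 and 194 CPM), with 349 and 44.2 CPM of Itgax. Of the dendritic cell genes, Flt3 stood at 4.39 to 8.71 CPM in lung, 3.76 to 6.25 CPM in blood and 1.2 to 2.19 CPM in bone marrow, and Cd209a at 3.62 to 9.58, 0.86 to 4.71 and 0.31 to 0.431 CPM, both higher outside the marrow as Itgax was. Zbtb46 stood at 0.695 to 2.27, 0.317 to 0.747 and 0.0784 to 0.167 CPM in lung, blood and bone marrow, and Clec9a at 2.88 to 5.75, 4.05 to 6.34 and 1.39 to 1.76 CPM. The 12 macrophage markers summed to 1087, 1279 and 297 CPM in lung replicates 1, 2 and 3, 209 to 246 CPM in blood and 870 to 1168 CPM in bone marrow. Chil3 alone held 799 to 1081 CPM in bone marrow. Marco stood at 31.8, 23.6 and 0.745 CPM in lung, at most 0.158 CPM in blood and at most 0.94 CPM in bone marrow. The part of dendritic cells and macrophages in the Itgax level was not tested.

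Itgal was highest in blood on average. It stood at 768, 1144 and 1952 CPM in lung libraries, at 1589, 1586 and 2129 CPM in blood libraries and at 859, 917 and 1077 CPM in bone marrow libraries. With TMM scaling, blood lay above marrow in every library, while lung overlapped both. No comparison passed: the log2 fold change was 0.89 ± 0.33 in blood against bone marrow (adjusted p = 0.0865), 0.44 ± 0.33 in lung against bone marrow (adjusted p = 0.319) and -0.46 ± 0.33 in lung against blood (adjusted p = 0.342). Blood against bone marrow passed without lung replicate 1 or 3 (adjusted p = 0.0412 and 0.0192). It also passed with upper-quartile scaling, with the replicate number as a block, with only 2 tissues in the fit and with the DESeq2 test. Without lung replicate 3, lung against blood passed (-0.92, adjusted p = 0.0211) and lung against bone marrow turned to -0.03. The result depended on the scaling. In FPKM, Itgal stood at 169 to 285 in lung, 318 to 412 in blood and 150 to 156 in bone marrow, with no overlap between groups. Every comparison of Itgal passed on FPKM, with a pseudocount of 1 or 0.1.

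The balance of the 3 alpha chains was also taken within each library. Itgam made up 46.2%, 44.7% and 46.9% of the summed Itgam, Itgal and Itgax FPKM in lung libraries, 47.8%, 46.3% and 45.7% in blood libraries and 77.3%, 78.6% and 76.9% in bone marrow libraries. Itgal made up 38.8% to 41.6% in lung, 44.3% to 44.8% in blood and 20% to 21.5% in bone marrow. Itgax made up 11.5% to 14.9% in lung, 7.68% to 9.53% in blood and 1.4% to 1.57% in bone marrow. Itgam and Itgal were thus close to equal in lung (1.14 ± 0.0521 times) and blood (1.05 ± 0.0271 times), whereas Itgam was 3.71 ± 0.193 times Itgal in bone marrow (FPKM ratio, SD, n = 3 each). In RSEM TPM the order in blood turned, with 553, 635 and 712 for Itgam and 559, 648 and 775 for Itgal, so which of the pair is higher in blood depends on the quantification. The shares of Itgal and of Itgax also did not overlap between lung and blood, while that of Itgam did (exact permutation p = 0.5). The 3 alpha chains together came to 136 ± 22.2% of Itgb2 FPKM in lung, 142 ± 6.92% in blood and 90.6 ± 5.93% in bone marrow.

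**Figure D3:**
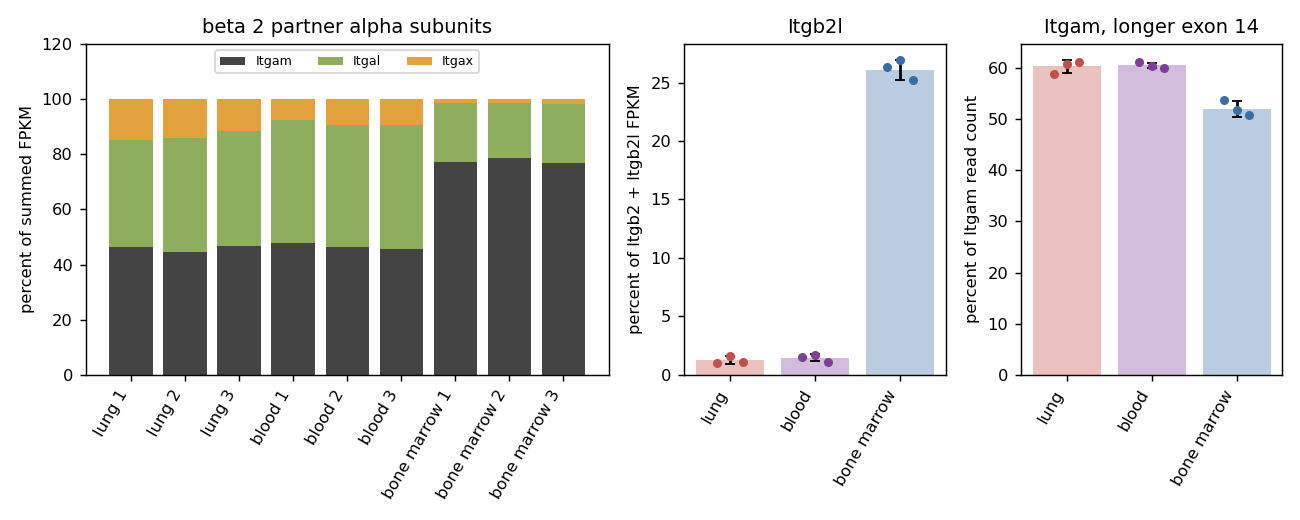
Left, share of Itgam, Itgal and Itgax in their summed FPKM for each library; middle, Itgb2l as percent of Itgb2 plus Itgb2l FPKM; right, the longer transcript as percent of the Itgam read count, with points for libraries, bars for means and whiskers for SD. The Itgam share is 76.9% to 78.6% in bone marrow and 44.7% to 47.8% in the other 6 libraries.

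Itgam is listed as a pair of transcripts that differ by 3 bases, and their balance differed between marrow and periphery. In the GENCODE annotation of the same build, which pairs them with those RefSeq transcripts, exon 14 of the longer form runs from 128101634 to 128101846 and that of the shorter form from 128101637, both coding, on the plus strand, after exon 13 ending at 128101556. The joined sequence across exons 13 and 14 is shown to place the difference, with the extra bases in capitals.
Longer form: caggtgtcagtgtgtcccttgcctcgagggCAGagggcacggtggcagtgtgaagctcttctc
Shorter form: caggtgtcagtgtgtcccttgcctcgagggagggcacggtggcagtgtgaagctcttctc
The longer form took 58.8%, 60.8% and 61.2% of the Itgam reads in lung libraries, 61.1%, 60.4% and 60% in blood libraries and 53.7%, 51.8% and 50.7% in bone marrow libraries. Lung and blood overlapped (exact permutation p = 0.9), and both lay above every marrow library (p = 0.1, the smallest possible in exact permutation). The split is the authors' estimate: only reads that cross this junction tell the forms apart, so the shares carry more error than the read totals imply. Itgal is listed as 4 transcripts of 5219 to 5225 bases, each with about the same number of reads except in bone marrow replicate 3, where 1 form took 40.3%, and only its sum is used.

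The start regions of the neighbours Itgam and Itgax and of Itgb2l were read from RefSeq (GRCm38.p6, the mm10 build), since Itgam and Itgb2l were lower, and Itgax higher, in lung than in bone marrow. Each runs from 250 bases before to 50 bases after the gene's start, and capitals mark GAGGAA or its reverse complement TTCCTC, the core motif of the myeloid ETS factor PU.1. The first lies at chr7:128062390-128062689 on the plus strand, the second at chr7:128129300-128129599 on the plus strand and the third at chr16:96443565-96443864 on the minus strand.
Itgam: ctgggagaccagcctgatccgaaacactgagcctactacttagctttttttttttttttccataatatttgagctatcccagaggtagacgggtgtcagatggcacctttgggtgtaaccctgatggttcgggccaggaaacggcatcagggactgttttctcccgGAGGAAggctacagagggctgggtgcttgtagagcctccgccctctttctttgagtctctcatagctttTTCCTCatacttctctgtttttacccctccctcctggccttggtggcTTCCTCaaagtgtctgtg
Itgax: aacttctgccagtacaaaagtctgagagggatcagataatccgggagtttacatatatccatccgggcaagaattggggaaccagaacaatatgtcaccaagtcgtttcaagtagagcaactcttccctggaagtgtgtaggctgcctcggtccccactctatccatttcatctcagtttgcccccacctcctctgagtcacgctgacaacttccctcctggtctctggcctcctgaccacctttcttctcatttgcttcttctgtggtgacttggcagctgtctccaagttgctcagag
Itgb2l: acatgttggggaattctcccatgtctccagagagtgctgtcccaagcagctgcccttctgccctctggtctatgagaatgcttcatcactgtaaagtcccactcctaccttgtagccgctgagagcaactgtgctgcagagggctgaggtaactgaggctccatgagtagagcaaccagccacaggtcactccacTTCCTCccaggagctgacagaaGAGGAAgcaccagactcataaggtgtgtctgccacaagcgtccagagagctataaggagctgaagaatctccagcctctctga
The window held 3 matches for Itgam, 2 for Itgb2l and 0 for Itgax. Of all 32851 start regions of this length, 28.3% held at least 1 match, so a match is common and is given as a description of the letters. Of the other members, 4 had an entry: Itga5, Itgb1 and Itgb7 held 1 match each and Itga4 none.

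The remaining chains belong to integrins that bind VCAM-1, MAdCAM-1 and fibronectin. Itga4, the α4 chain of VLA-4 and of α4β7 (Entrez gene 16401, chromosome 2, 79255426 to 79333114), was highest in blood. It stood at 172, 256 and 340 CPM in lung libraries, at 483, 491 and 539 CPM in blood libraries and at 106, 88.3 and 76.4 CPM in bone marrow libraries, with no overlap between any of the groups. It was 5.59-fold higher in blood than in bone marrow (log2 fold change 2.48 ± 0.26, adjusted p = 0.000295) and 2.83-fold higher in lung than in bone marrow (1.50 ± 0.25, adjusted p = 0.00174). Lung was 1.97-fold lower than blood (-0.98 ± 0.25, adjusted p = 0.0176), a call lost without lung replicate 2 or any 1 of the blood libraries (adjusted p = 0.0503 to 0.139).

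Itgb7, the β7 chain that pairs with α4 in the gut-homing receptor (Entrez gene 16421, chromosome 15, 102215995 to 102231935), followed the same order of means. It stood at 105, 127 and 142 CPM in lung libraries, at 156, 181 and 211 CPM in blood libraries and at 81.1, 88.8 and 105 CPM in bone marrow libraries. Blood lay above both other groups, which met at 105 CPM. It was 1.99-fold higher in blood than in bone marrow (0.99 ± 0.18, adjusted p = 0.00527). Lung against bone marrow, at 0.44 ± 0.18, did not pass (adjusted p = 0.081). It passed on FPKM, where lung (40.6 to 52.4) lay above bone marrow (27.6 to 29.8). The lower level in lung than in blood (-0.55 ± 0.18, adjusted p = 0.0462) was lost on leaving out any 1 library other than lung replicate 3 (adjusted p = 0.0573 to 0.322).

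α4β7 and VLA-4 also mark lymphocytes. In blood replicate 3 the 9 B cell markers present summed to 73.8 CPM and the 13 T and NK cell markers to 25.4 CPM, against 445 to 457 CPM and 48.2 to 145 CPM in blood replicates 1 and 2. With TMM scaling that library had the highest Itga4 (539 CPM) and Itgb7 (211 CPM) of the series. On FPKM, blood replicate 2 was the highest for both, with 60.3 against 55.5 FPKM of Itga4 and 81.8 against 79.9 FPKM of Itgb7 in blood replicate 3. Eosinophils carry α4β7 as well. The 12 eosinophil, basophil and mast cell markers summed to 49.5 to 61.4 CPM in lung, 52 to 62 CPM in blood and 16.3 to 89.6 CPM in bone marrow. Of these, Siglecf stood at 32 to 46.2 CPM in lung, 41.6 to 56.5 CPM in blood and 10.7 to 11.8 CPM in bone marrow. Siglecf was thus higher outside the marrow, as Itga4 was. Ccr3 stood at 1.54 to 2.33, 2.75 to 4.46 and 0.882 to 1.71 CPM in lung, blood and bone marrow. Blood was highest for Ccr3, and lung overlapped bone marrow. The granule gene Epx was at 0 in all 6 lung and blood libraries and at 0.307 to 15.7 CPM in bone marrow. Prg2 stood at 50.3, 3.9 and 1.33 CPM in bone marrow libraries and at most 0.236 CPM elsewhere. Mcpt8 stood at 5.96, 1.49 and 0.204 CPM in bone marrow libraries and at most 0.398 CPM elsewhere. The part of lymphocytes and eosinophils in the Itga4 and Itgb7 levels was not tested.

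Itga5, the α5 chain of the fibronectin receptor (Entrez gene 16402, chromosome 15, 103344286 to 103366791), was the member most raised outside the marrow. It stood at 85.7, 85.1 and 111 CPM in lung libraries, at 99.5, 113 and 166 CPM in blood libraries and at 10.2, 9.56 and 9.15 CPM in bone marrow libraries. All 6 peripheral libraries lay at or above 85.1 CPM, and lung overlapped blood. It was 13.1-fold higher in blood than in bone marrow (3.71 ± 0.23, adjusted p = 3.21e-05) and 9.75-fold higher in lung than in bone marrow (3.29 ± 0.22, adjusted p = 2.48e-05). Lung against blood, at -0.43 ± 0.20, did not pass (adjusted p = 0.151), and passed narrowly without lung replicate 3 (adjusted p = 0.0499). On FPKM it passed with a pseudocount of 1 and not with 0.1. Fibroblasts and endothelium also use α5. Blood replicate 3, with the highest Itga5, had the lowest fibroblast sum of the series (41.4 CPM) and an endothelial sum of 23.1 CPM, close to the 20.8 to 21.6 CPM of bone marrow. In lung replicates 1, 2 and 3, Itga5 stood at 22.3, 21.3 and 19.2 FPKM, ordered as the fibroblast sums of 1934, 1544 and 115 CPM. This order depends on the scaling: with TMM scaling Itga5 was highest in lung replicate 3, at 85.7, 85.1 and 111 CPM. The part of these and other cells in the Itga5 level was not tested.

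Itgb1, the widely expressed β1 chain (Entrez gene 16412, chromosome 8, 128685654 to 128733579), was the only member to pass as higher in lung than in blood, and its mean was highest in lung and lowest in bone marrow. It stood at 81.7, 76.1 and 63.6 CPM in lung libraries, at 50.2, 60.5 and 46 CPM in blood libraries and at 35, 30.5 and 28.5 CPM in bone marrow libraries, with no overlap between groups. It was 2.35-fold higher in lung than in bone marrow (1.24 ± 0.15, adjusted p = 0.000375) and 1.67-fold higher in blood than in bone marrow (0.74 ± 0.15, adjusted p = 0.00991, and 0.0502 without bone marrow replicate 2). Lung against blood stood at 0.50 ± 0.15 (adjusted p = 0.0374), a call lost on leaving out any 1 library other than lung replicate 3 (adjusted p = 0.0524 to 0.155).

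In lung, Itgb1 was ordered as the fibroblast sums were: 81.7, 76.1 and 63.6 CPM beside 1934, 1544 and 115 CPM. The endothelial sums were 116, 79.3 and 29.8 CPM and the lung epithelial sums 915, 290 and 79.4 CPM in the same libraries. Lung replicate 3, whose fibroblast sum of 115 CPM lay within the 41.4 to 173 CPM of blood, held 63.6 CPM of Itgb1, beside 46 to 60.5 CPM in blood. This order depends on the scaling: in FPKM that library stood at 11.6, within the 11.1 to 17.4 of blood, and in RSEM TPM at 20.9, below the 22.3 to 32.4 of blood. The part of other cells in the lung level was not tested.

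**Figure D4:**
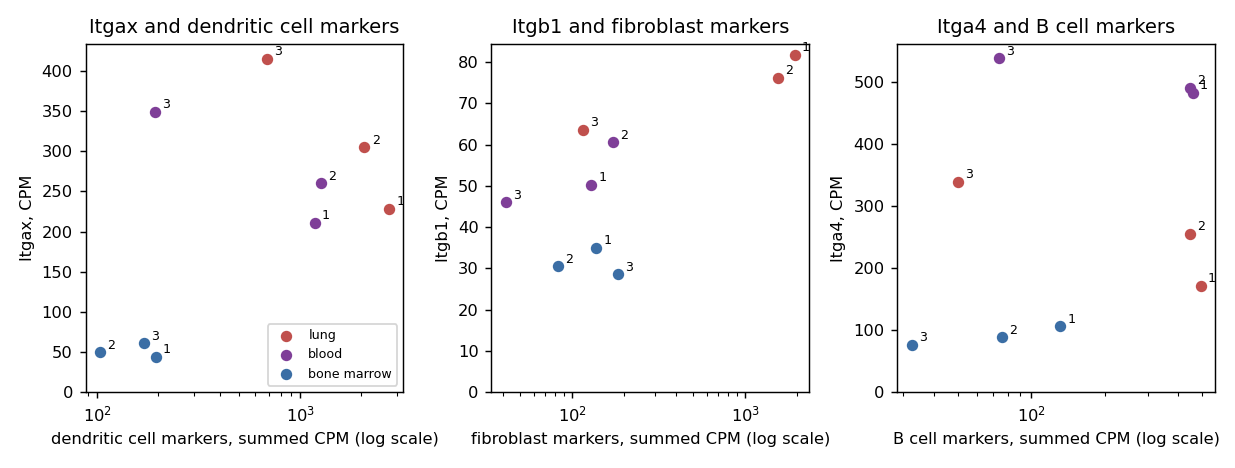
Level of Itgax, Itgb1 and Itga4 (y axis, CPM) against the summed CPM of dendritic cell, fibroblast and B cell markers (x axis, log scale), 1 point for each of the 9 libraries, numbered by replicate. On this scale, replicate 3 of lung and of blood has the highest Itgax and Itga4 of its tissue beside the lowest marker sum, while Itgb1 in lung runs with the fibroblast sum; in FPKM, replicate 2 is the highest for Itga4 in both tissues and for Itgax in lung.

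The balance within these pairs also differed per length. Itgb7 made up 66.8%, 72.3% and 77.8% of the summed Itgb1 and Itgb7 FPKM in lung libraries, 83%, 82.5% and 87.8% in blood libraries and 78.4%, 82% and 85.3% in bone marrow libraries. Lung lay below both, and blood and marrow overlapped (exact permutation p = 0.4). Itga5 made up 42.1% to 52.7% of the summed Itga4 and Itga5 FPKM in lung, 31.5% to 40.7% in blood and 17.6% to 21% in bone marrow, with no overlap between groups.

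Ranked by FPKM, Itgb2 led in every library and the tail of the order changed. In lung the order of means was Itgb2, Itgam, Itgal, Itgax, Itgb7, Itga4, Itga5, Itgb1 and Itgb2l. The lung ranges of Itgam and Itgal overlapped, and those of Itga4, Itga5 and Itgb1 all overlapped with each other. In blood it was Itgb2, Itgam, Itgal, Itgb7, Itgax, Itga4, Itga5, Itgb1 and Itgb2l, with overlap between Itgam and Itgal, between Itgb7 and Itgax, and between Itgax and Itga4. In bone marrow it was Itgb2, Itgam, Itgb2l, Itgal, Itgb7, Itgax, Itga4, Itgb1 and Itga5, and only Itga4 and Itgb1 overlapped. Itgb2l thus held the third place in marrow and the last elsewhere, at 4.1 to 6.44 FPKM in lung, 7.38 to 9.77 FPKM in blood and 263 to 304 FPKM in bone marrow.

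Genes with the pattern most like each member over the 9 libraries were found by Pearson correlation of log2 CPM. The libraries share tissue, so these values mostly follow the tissue means and are given without a test. Itgb2l ran closest to Ltf, the lactoferrin gene of specific granules, and to Ly6c2, a Ly6C antigen gene (r = 0.998 for each). Itgam ran with Srpk2, a splicing factor kinase (r = 0.996), and Xdh, xanthine dehydrogenase (r = 0.992), and Itgb2 with Tbc1d2b (r = 0.997) and Actr2, a subunit of the Arp2/3 complex (r = 0.996). Itga5 ran with St3gal1, a sialyltransferase (r = 0.993), and Siglecf, a sialic acid-binding lectin best known from eosinophils and alveolar macrophages (r = 0.991). Itga4 ran with Zmiz1 (r = 0.992) and Iqce (r = 0.991), Itgal with Abr (r = 0.995) and Rnf2 (r = 0.990), and Itgax with Dalrd3 (r = 0.993) and Peak1 (r = 0.986). Itgb7 ran with Sbno2 (r = 0.986) and Trim30d (r = 0.985), and Itgb1 with Bop1 (r = 0.984) and the cholesterol exporter Abca1 (r = 0.983). Between members, r was 0.98 for Itgam and Itgb2, 0.97 for Itgax and Itga5, 0.92 for Itga4 and Itgb7 and -0.97 for Itga5 and Itgb2l.

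Of 18 other integrin chains listed, 15 were tested: 2 were higher and 0 lower in lung than in blood, 6 higher and 2 lower in lung than in bone marrow, and 3 higher and 1 lower in blood than in bone marrow. Over all tested genes, 13.2% were higher and 15.7% lower, 15.6% higher and 22.6% lower, and 8.35% higher and 13.1% lower in these comparisons, so 2 of 15 is near the share of all genes. The 6 higher became 2 without lung replicate 1 or bone marrow replicate 2, and 3 without lung replicate 2 or bone marrow replicate 1 or 3. The 3 higher in blood became 1 without blood replicate 3 or bone marrow replicate 2. Itgad, the CD11d chain and the remaining partner of Itgb2, stood at 7.36 ± 2.57 CPM in lung, 6.46 ± 1.2 CPM in blood and 1.04 ± 0.604 CPM in bone marrow (SD, n = 3 each). It was higher in lung (2.81 ± 0.48, adjusted p = 0.00185) and in blood (2.62 ± 0.47, adjusted p = 0.00511) than in bone marrow, as Itgax was. Itgb5 was higher in lung than in bone marrow (2.44 ± 0.43, adjusted p = 0.00224), with 9.25, 7.66 and 2.01 FPKM in lung replicates 1, 2 and 3, an order shared with the fibroblast sums. Itgb5 was also higher in blood than in bone marrow (1.52 ± 0.42, adjusted p = 0.0307), and Itga2b, the platelet αIIb chain, likewise (1.45 ± 0.37, adjusted p = 0.024). Itga2b stood at 6.93, 19.7 and 16.2 CPM in blood libraries and at 7.03, 4.56 and 4.04 CPM in bone marrow libraries, so blood replicate 1 lay within the marrow range. The platelet genes Ppbp (0.784, 7.31 and 6.38 CPM) and Gp9 (0.261, 3.56 and 2.22 CPM) were also low in blood replicate 1 and higher in blood replicates 2 and 3, and their part in the Itga2b level was not tested. The calls of Itgb5 and Itga2b were lost without blood replicate 3 or bone marrow replicate 2, that of Itgb5 also without bone marrow replicate 1 and that of Itga2b also without blood replicate 2 or bone marrow replicate 3 (adjusted p = 0.05 to 0.115 and 0.0733 to 0.0957). Itgae, the CD103 chain that pairs with β7, was higher in lung than in bone marrow (1.94 ± 0.59, adjusted p = 0.0293), lost without lung replicate 1 or 2 or any 1 of the marrow libraries (adjusted p = 0.069 to 0.0973). Itgae stood at 8.38, 7.77 and 2.11 CPM in lung libraries and at 1.81, 1.86 and 1.07 CPM in bone marrow libraries. In the same lung libraries the dendritic cell sums were 2736, 2071 and 685 CPM and the T and NK cell sums 152, 163 and 25.2 CPM. The part of these cells in the Itgae level was not tested.

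Of 30 genes that switch integrins on or off, 6 were higher and 9 lower in lung than in blood, 3 higher and 16 lower in lung than in bone marrow, and 1 higher and 5 lower in blood than in bone marrow. The list's median log2 fold changes were -0.32, -0.52 and -0.42, beside 0.05, 0.06 and -0.05 over all tested genes. Of all tested genes, 15.7%, 22.6% and 13.1% were lower and 13.2%, 15.6% and 8.35% higher. With DESeq2 size factors 6 were higher and 3 lower in lung than in blood, so the direction of that count turned, and 4 were higher and 11 lower in lung than in bone marrow. The count in lung against blood rested on single libraries: 7 were higher and 15 lower without lung replicate 3, 4 higher and 3 lower without blood replicate 1 or 2, 5 higher and 2 lower without blood replicate 3, and 5 higher and 4 lower without lung replicate 2. It was 5 and 5 without lung replicate 1 or bone marrow replicate 2. In lung against bone marrow, 11 to 20 were lower over all single omissions. In blood against bone marrow the 5 lower became 0 without blood replicate 2, 1 without blood replicate 1 or 3, and 8 without lung replicate 3. Leaving out the marrow libraries numbered 2 and 3 in turn gave 3 and 2. On FPKM 3 were higher and 3 lower in blood than in bone marrow. Tln1, talin, which binds beta chain tails to activate them, stood at 669 ± 217 CPM in lung, 1643 ± 319 CPM in blood and 2037 ± 153 CPM in bone marrow, a log2 fold change of -1.61 ± 0.27 in lung against bone marrow (adjusted p = 0.00183). Fermt3, kindlin-3, the blood-cell partner of talin, stood at 122 ± 5.65, 182 ± 20.6 and 329 ± 47 CPM in lung, blood and bone marrow. It was lower in blood than in bone marrow (-0.85 ± 0.16, adjusted p = 0.00597), a call lost without blood replicate 1 or 2 (adjusted p = 0.119 to 0.133). Flna, filamin A, which competes with talin, was lower in blood than in bone marrow at 2160 ± 307 CPM against 4383 ± 292 CPM (-1.02 ± 0.27, adjusted p = 0.0255), and any 1 blood or marrow library decided this call (adjusted p = 0.0671 to 0.24 without it). Sipa1, a Rap1 GTPase-activating protein, was lower in lung than in bone marrow (-1.71 ± 0.18, adjusted p = 0.000156).

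Opposite to these, Cyth1, cytohesin-1, which binds the β2 tail and regulates LFA-1 adhesion, stood at 1160 ± 372 CPM in lung, 71 ± 28.7 CPM in blood and 101 ± 21.1 CPM in bone marrow. It was higher in lung than in blood (4.03 ± 0.38, adjusted p = 0.00029) and than in bone marrow (3.52 ± 0.37, adjusted p = 0.000144). Slc3a2, the CD98 heavy chain, which binds β1 and β3 tails, was higher in lung than in blood (2.82 ± 0.45, adjusted p = 0.0025), at 535 ± 199 CPM against 75.9 ± 47.9 CPM. It was lower in blood than in bone marrow (-1.84 ± 0.43, adjusted p = 0.0166), a call lost without blood replicate 2 or 3 or bone marrow replicate 3 (adjusted p = 0.056 to 0.109). Dok1, a competitor of talin for beta tails, was lower in lung than in blood (-1.75 ± 0.20, adjusted p = 0.000574).

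Of 41 genes that signal from bound integrins, 3 were higher and 10 lower in lung than in blood, 6 higher and 20 lower in lung than in bone marrow, and 2 higher and 7 lower in blood than in bone marrow. Their medians were -0.31, -0.62 and -0.11, and the last was 0.04 with upper-quartile scaling. Beside these stand 15.7%, 22.6% and 13.1% of all tested genes lower and 13.2%, 15.6% and 8.35% higher, and 7 of 41 lower is near the 13.1%. With DESeq2 size factors 5, 12 and 5 were lower in these comparisons. Without lung replicate 3 the numbers lower were 20, 30 and 12. In lung against blood they were 5, 5 and 2 without blood replicates 1, 2 and 3 and 6 without lung replicate 1 or 2. In lung against bone marrow they were 11, 12 and 12 without blood replicates 1, 2 and 3 and 13 and 12 without bone marrow replicates 2 and 3, and the 6 higher were 2 to 7 over single omissions. In blood against bone marrow they were 3, 3 and 4 without blood replicates 1, 2 and 3 and 4 without bone marrow replicate 3. On FPKM 11 were higher and 8 lower in blood than in bone marrow, so that direction turned. Lims1, the adaptor PINCH-1, was lower in blood (-2.74 ± 0.20, adjusted p = 5.48e-05) and in lung (-2.65 ± 0.20, adjusted p = 3.32e-05) than in bone marrow. Vcl, vinculin, which ties talin to actin, was lower in blood than in bone marrow (-1.79 ± 0.26, adjusted p = 0.00187). The phosphoinositide 3-kinase gene Pik3cd (-1.52 ± 0.22, adjusted p = 0.00174) and the ubiquitin ligase gene Cbl (-1.75 ± 0.30, adjusted p = 0.00332) were lower in lung than in blood. Pik3cg, a further kinase of that family, was also lower in lung than in blood (-1.49 ± 0.31, adjusted p = 0.00827, and 0.0749 without blood replicate 3). Actn1, α-actinin, was lower in blood than in bone marrow (-1.54 ± 0.25, adjusted p = 0.00295), lost without blood replicate 1 or 2 (adjusted p = 0.0563 to 0.0647). In the other direction, Parvb, β-parvin, was higher in lung than in bone marrow (2.60 ± 0.54, adjusted p = 0.00549), at 6.13 ± 2.18 CPM against 1.01 ± 0.323 CPM. Vav2, a guanine nucleotide exchange factor, was higher in lung than in bone marrow (2.53 ± 0.83, adjusted p = 0.0405), and this was lost without any 1 library except lung replicate 3 or blood replicate 3 (adjusted p = 0.0517 to 0.12). Vav2 stood at 21.8, 20.7 and 2.85 CPM in lung libraries, at 12.4, 13.3 and 2.54 CPM in blood libraries and at 3.81, 2.59 and 1.43 CPM in bone marrow libraries, beside B cell sums of 493, 445 and 50.1 CPM, 457, 445 and 73.8 CPM, and 131, 76.1 and 32.4 CPM. The part of B cells in its level was not tested.

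Of 22 ligand genes listed, 18 were tested. Of these, 7 were higher and 0 lower in lung than in blood, and 6 higher and 0 lower in lung than in bone marrow. In blood against bone marrow, 1 was higher and 4 lower. Over all tested genes, 13.2% were higher and 15.7% lower in lung than in blood, and 15.6% higher and 22.6% lower in lung than in bone marrow. In blood against bone marrow 8.35% were higher and 13.1% lower, so 1 of 18 higher is near the share of all genes. The 7 became 4 without blood replicate 2, and the 6 became 3 without lung replicate 1 or 2 or bone marrow replicate 1 or 2. The 4 lower in blood became 0 without blood replicate 2 and 2 without blood replicate 3 or bone marrow replicate 3. Icam1, the main ligand of LFA-1 and Mac-1, stood at 496 ± 182 CPM in lung, 38.5 ± 5.58 CPM in blood and 11.1 ± 3.32 CPM in bone marrow. It was higher in lung than in blood (3.69 ± 0.33, adjusted p = 0.000242) and than in bone marrow (5.48 ± 0.36, adjusted p = 2.27e-05), and higher in blood than in bone marrow (1.79 ± 0.31, adjusted p = 0.00408). Vcam1, the ligand of VLA-4, was higher in lung than in blood (4.21 ± 0.41, adjusted p = 0.00036), at 7.68 ± 2.44 CPM against 0.413 ± 0.148 CPM. It was also higher in lung than in bone marrow (2.55 ± 0.38, adjusted p = 0.000944). F11r, the adhesion molecule JAM-A, a further ligand of LFA-1, was higher in lung than in bone marrow (3.71 ± 0.57, adjusted p = 0.00112). Spp1, osteopontin, a ligand of α4 and α5 integrins among others, was higher in lung than in blood (2.59 ± 0.54, adjusted p = 0.00846). Lower in blood than in bone marrow were Spp1 (-1.79 ± 0.53, adjusted p = 0.0413) and Plaur, the urokinase receptor (-1.56 ± 0.38, adjusted p = 0.0192). The Spp1 call was lost without lung replicate 2, blood replicate 2 or 3 or any 1 of the marrow libraries (adjusted p = 0.0573 to 0.181), and that of Plaur without blood replicate 2 or 3 or bone marrow replicate 3 (adjusted p = 0.0768 to 0.142). Endothelial and epithelial markers, whose cells also express these ligands, were higher in lung replicates 1 and 2 than in any blood library, at 79.3 to 116 CPM and 290 to 915 CPM against at most 42 CPM and 38 CPM. In lung replicates 1, 2 and 3 the endothelial sums were 116, 79.3 and 29.8 CPM and the epithelial sums 915, 290 and 79.4 CPM. With TMM scaling, Icam1 stood at 325, 475 and 688 CPM and Spp1 at 63.8, 64.3 and 136 CPM in these libraries. F11r stood at 22.4, 17.6 and 5.29 CPM and Vcam1 at 10.5, 6.33 and 6.2 CPM. The part of endothelial and epithelial cells in the ligand levels was not tested.

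**Figure D5:**
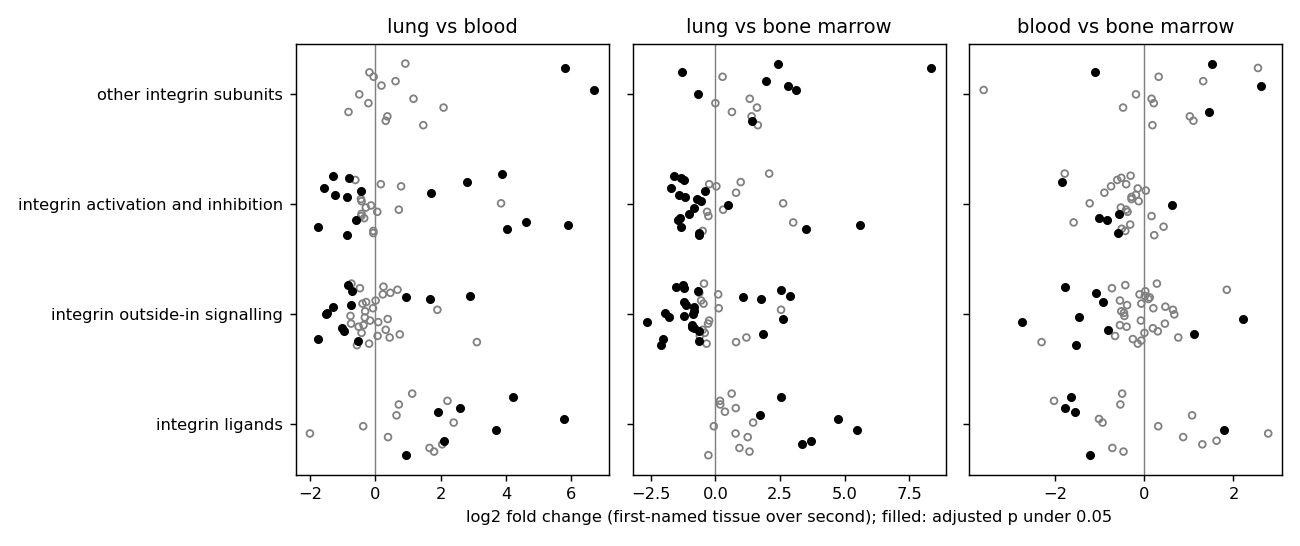
Log2 fold change of each tested gene (x axis) in 4 lists related to integrin function, in the 3 comparisons; filled points have an adjusted p under 0.05. In lung against bone marrow, 16 activation genes and 20 signalling genes are filled to the left of 0, and 6 ligand genes to the right.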

How the data were processed

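Per the submitters' processing notes, Bowtie2, STAR, StringTie 2.1.3b, RSEM and DESeq2 were used with build mm10; the labels give no roles. The series table, as deposited, holds a whole-number read count and an FPKM for 36780 RefSeq transcripts. The counts were taken as not normalized. In each library FPKM equals count over length times 1 constant, which cannot show whether a library was scaled as a whole. Counts and FPKM were summed by gene. Deposited bone marrow files repeat this table. Deposited blood and lung files hold RSEM expected counts and TPM, and the series counts of the members were 1.97 to 2.36 times these, so counting intervals may be too narrow. The table's column numbers run 1 above the titles' replicate numbers, which are used here.

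EdgeR 4.0.16 (R 4.3.3) kept 13510 genes by filterByExpr, applied TMM scaling, and fitted all 9 libraries with robust quasi-likelihood; tests were two-sided. SE is the absolute log2 fold change over the root of F. Alternatives used DESeq2 1.42.0 and limma 3.58.1, and shares and figures Python 3.11.15 with scipy 1.17.1. In simulated counts edgeR recovered 31% to 45% of 2-fold and 91% to 94% of 4-fold changes.

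Members and lists were chosen with earlier results of these data known. Every member is named; each other list names up to 3 passing genes of the greatest change with at least 5 CPM in the higher tissue. No gene of other integrin subunits was named in lung against blood. The 2 like genes per member came from 5458 candidates with at least 20 CPM in their highest tissue.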

Additional observations from a re-analysis of the deposited data

How the results depend on the processing

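Of the 3 counts of members passing, those against bone marrow moved by at most 1.5 times: 5 to 9 in blood and 5 to 9 in lung over all alternatives. Itgax, Itga4, Itga5 and Itgb2l passed both comparisons with bone marrow in every alternative run, and Itgb1 in all but 1. Itgam and Itgb2 did not pass in lung against bone marrow with DESeq2 size factors, no filter or only 2 tissues in the fit. The count for lung against blood, 3 members, was not stable. It was 1 with DESeq2 size factors (Itgb1), 1 with only 2 tissues in the fit (Itga4) and 1 with RSEM counts (Itga4). It was 0 with no filter, where 3332 of all genes passed, 7 on FPKM with a pseudocount of 1 and 6 with a pseudocount of 0.1. Leaving out single libraries gave 0 to 8, the highest without lung replicate 3. The cause was not tested. Without lung replicate 3, Itgax in lung against blood and Itgal in lung against bone marrow changed sign (-0.07 and -0.03); over single omissions they ran from -0.07 to 0.47 and from -0.03 to 0.71. With the replicate number as a block, 3 members passed in lung against blood, 9 in blood against bone marrow and 8 in lung against bone marrow. Deviations from the tissue mean correlated at 0.0489 to 0.518 for same-numbered libraries and at -0.504 to 0.453 for other-numbered ones. Replicate 3 also had the lowest B cell sum of each tissue (50.1, 73.8 and 32.4 CPM in lung, blood and bone marrow). The labels do not say what a shared number means, so the main fit had no block. Whether the numbers pair the samples was not settled. Over all genes, 3900 passed in lung against blood, against 5852 without lung replicate 3 and 2529, 2338 and 1922 without blood replicates 1, 2 and 3. In blood against bone marrow 2892 passed, against 1555, 1236 and 1499 without those blood replicates and 1593 and 1661 without bone marrow replicates 2 and 3. In lung against bone marrow 5158 passed, against 3252 without bone marrow replicate 2. The share of calls higher was 45.6% in lung against blood, 39% in blood against bone marrow and 40.9% in lung against bone marrow, 55.9%, 52.6% and 59.3% with upper-quartile scaling, 56.9%, 43.1% and 52% with DESeq2 size factors and 32.4%, 67.1% and 48.9% on FPKM. Upper-quartile scaling moved the median log2 fold change of all genes by 0.16, 0.16 and 0.32. RSEM TPM put the Itgam share of the alpha chains at 43% in lung and 44.4% in blood and that of Itgal at 42.8% and 46.1%, which turned their order in blood.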
